A study of Mus musculus with 16 samples.

Results

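The 46 genes described here encode the core of transforming growth factor beta (TGFβ) and bone morphogenetic protein (BMP) signalling. They were taken by name from an expression table of 31274 gene rows, as the ligands, receptors, Smads, antagonists, ligand-storage proteins and well-known target genes of the TGFβ superfamily. The rule itself uses no measured value, but the list was drawn up with earlier results of these data known. RNA-seq had been run on seminal vesicles (SV) of 5-week-old C57BL/6 male mice, with 4 samples in each of 4 groups and 16 samples in all. WT-veh and αERKO-veh pups received corn oil by subcutaneous injection on days 1 to 5 after birth, and WT-DES and αERKO-DES pups received the synthetic oestrogen diethylstilbestrol (DES) at 2 µg/pup/day on the same days. αERKO mice lack oestrogen receptor alpha (ERα, encoded by Esr1) in every tissue, and were bred from heterozygous C57BL/6 parents, whereas the WT pups came from purchased pregnant females. SV were separated from the anterior prostate by dissection and frozen. The methods name individual mice for 3 of the groups and pools of several mice for WT-DES, in a number that does not match the 4 WT-DES samples, so how many mice stand behind each WT-DES value is uncertain.

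Ligands of the TGFβ superfamily are secreted dimers that bring together a type II and a type I receptor serine/threonine kinase. TGFβ and activin receptors act mainly through Smad2 and Smad3, BMP receptors through Smad1, Smad5 and Smad9, and both arms share Smad4, while Smad6 and Smad7 inhibit them. Secreted antagonists such as noggin, chordin and follistatin hold ligands away from their receptors, latent TGFβ binding proteins store TGFβ in the matrix, and the Id genes are direct targets of the BMP arm. In male accessory glands these factors take part in the exchange between stroma and epithelium that shapes duct growth.

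Values are FPKM, a fragment count scaled to transcript length and to the library's total, so levels of different genes may be compared. In WT-veh SV, 3 of the 46 genes had a mean above 100 FPKM, 21 lay between 10 and 100, 18 between 1 and 10 and 4 at or below 1, with a median of 10.2. The most abundant were the BMP targets Id3 (411 ± 41.7 FPKM, SD, n = 4), Id1 (255 ± 64.8) and Id2 (183 ± 11.4), of which Id1 and Id2 differed by less than 2 SD of Id1. Fstl1, which encodes a secreted follistatin-like glycoprotein, followed at 78 ± 1.93, Gdf10 at 48.8 ± 3.05, the common Smad4 at 39.8 ± 2.6 and the BMP receptor gene Bmpr1a at 30.4 ± 2.74 FPKM. Smad1, Tgfb3, Bmp1, Bmp7, Smad6 and Tgfbr2 came next, between 20.6 ± 1.06 and 23.6 ± 1.65 FPKM, and these neighbours were not separated by more than their SDs. At the low end were Nog (0.833 ± 0.156), Inhba (0.235 ± 0.141) and Bmp5 (0.147 ± 0.104), and Grem1 was listed at 0 in all 4 WT-veh samples.

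Genes were compared on log2(FPKM + 1) with limma, in 1 fit over all 16 samples and the 15988 genes whose mean exceeded 1 FPKM in at least 1 group. A change was called at a Benjamini-Hochberg adjusted p of at most 0.05 over all of those genes, with group mean FPKM at least 1.5-fold apart. The p-values measure the spread between these samples. Of the 46 genes 45 entered the test and 1, Grem1, did not. Grem1, which encodes the BMP antagonist gremlin, read 0.22, 0.17, 0.13 and 0.23 FPKM in WT-DES samples, 0, 0.15, 0.03 and 0.06 in αERKO-veh SV and 0 in every αERKO-DES sample. As a check of the labels, Esr1 read 4.43, 4.55, 3.7 and 2.81 FPKM in the WT-veh samples and 8.74, 19.6, 13 and 15.71 in WT-DES. In αERKO-veh it read 1.3, 1.59, 1.75 and 1.43, and in αERKO-DES 0.91, 1.15, 1.51 and 1.64. All 8 αERKO samples were below all 8 WT samples.

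Facts of the whole tissue bear on every comparison with WT-DES. The FPKM of a sample summed to between 590446 and 652708 in WT-veh and between 375207 and 437619 in WT-DES, and the 20 highest genes held 14.3% to 17.4% of the total in WT-veh and 1.61% to 14.5% in WT-DES. The 14 leukocyte markers found summed to between 82.1 and 144 FPKM in WT-veh samples, and to between 599.5 and 1297 in WT-DES, and 14 of 14 were called higher. Fibroblast markers summed to 946.9 to 1112 and 2368 to 2519 (7 of 8 called higher), and endothelial markers to 116 to 143 and 210.4 to 352 (8 of 8 called higher). Epithelial markers summed to 1847 to 2078 and 950.6 to 1195 (5 of 7 called lower), basal epithelial markers to 168 to 245 and 248 to 533 (2 of 4 called higher), adipose markers to 223 to 1114 and 879 to 2068 (4 of 7 called higher), and SV secretory protein genes to 59615 to 68631 and 2647 to 8828 (11 of 11 called lower). Smooth muscle markers summed to 3446 to 4270 in WT-veh and 997 to 4293 in WT-DES, where the highest value belonged to WT-DES 1 and 5 of 8 were called lower. Every gene of these lists was detected in every group. Skeletal muscle markers summed to 744.5 to 2378 in WT-veh and 45.8 to 358 in WT-DES (3 of 12 called lower). Genes of the anterior prostate also gave 3980 to 9569 FPKM in WT-veh against 29.4 to 387 in WT-DES. In whole tissue, a different share of a cell type and a different amount of RNA per cell cannot be told apart, and the part of these shifts in the results below was not tested.

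The first comparison asked what neonatal DES had left in WT SV at week 5. Most ligand, receptor and storage genes were higher in WT-DES. The genes that fell were Bmpr1b, Smad6, Smad9, Id3 and Id1, the last with a sign that turned after quantile normalization. Of the 45 genes tested, 33 were called (73.3%), 28 higher and 5 lower, beside 52.7% of all genes tested (28.9% called higher, 23.9% lower). The median log2 change was 0.65 over the 45 genes and -0.01 over all genes tested. Another 6 (Tgfb3, Acvr2a, Smad2, Smad4, Smad7 and Chrd) passed the adjusted p limit in limma and missed the 1.5-fold limit, so that 39 of the 45 passed that p limit, beside 73.8% of all genes tested. The WT-DES and WT-veh samples did not overlap for 36 of the 45, beside 66.7% of all genes tested. Scaling all samples to equal totals without the 20 highest genes moved the median of all genes to 0.38 and of the 45 genes to 1.03, with 34 called higher and 2 lower, and over all genes the share of calls that were higher went from 54.7% to 79.2%. After quantile normalization 27 genes were called, without Acvr2b, Bmp2, Bmpr2, Gdf11, Id1, Id3, Nog and Tgfb2. With each sample corrected for its trend with transcript length 28 were called, without Bmpr2, Gdf10, Id1, Smad5, Tgfb2 and Tgfbr1.

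**Figure D1:**
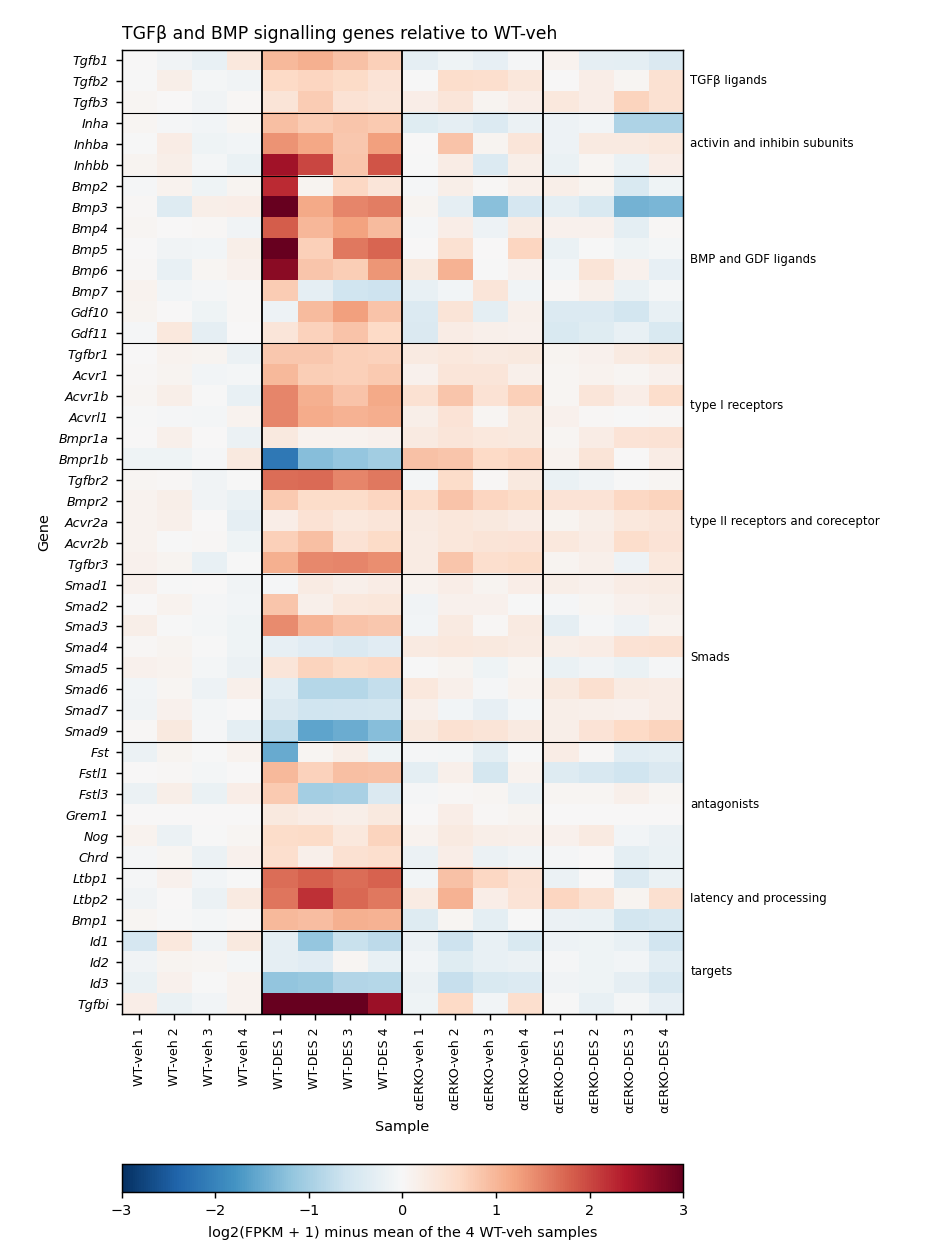
Heat map of the 46 genes (rows, grouped by role) in the 16 samples (columns), coloured by log2(FPKM + 1) minus the mean of the 4 WT-veh samples, with colours saturating at 3 and at -3. The WT-DES columns are red for most ligands, receptors and storage proteins and blue for Bmpr1b, Smad6, Smad9 and Id3, whereas both αERKO groups stay pale for most rows.

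All 3 TGFβ ligand genes had higher means in WT-DES and 2 of 3 were called (66.7%), beside 52.7% of all genes tested. Tgfb1, the main TGFβ of immune cells, read 12.7, 11.8, 10.7 and 16.1 FPKM in WT-veh and 25.9, 27.8, 24.4 and 21.3 in WT-DES. In αERKO-veh it read 10.4, 11.6, 10.5 and 12.4, and in αERKO-DES 13.7, 10.4, 10.2 and 9.06. Every WT-DES sample was above all 12 others, a 1.94-fold rise over WT-veh (log2 change 0.91 ± 0.13 SE, limma adjusted p 1.4e-05). Tgfb2 rose from 6.6 ± 0.639 to 10.2 ± 0.794 FPKM (SD, n = 4 each; 1.54-fold, limma adjusted p 0.00073), and 1.31-fold, not called, both after quantile normalization and after the length correction. Tgfb3, the highest of the 3 in WT-veh, was 23.3 ± 1.16 and 33.3 ± 4.58 FPKM, 1.43-fold and under the fold limit.

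Subunits of activin and inhibin all rose. Inhbb encodes the βB subunit, which forms activin B with itself and inhibin B with the α subunit. It read 1.73, 1.91, 1.48 and 1.24 FPKM in WT-veh and 13.7, 9.31, 3.58 and 8.55 in WT-DES. Values were 1.55, 2.01, 0.94 and 1.89 for αERKO-veh mice and 1.26, 1.69, 1.26 and 1.97 for αERKO-DES mice. All WT-DES samples were above all others, but WT-DES 3 was much the lowest of its group, and the mean rose 5.53-fold (log2 change 1.81 ± 0.26 SE, limma adjusted p 2e-05). Inhba, the gene of the βA subunit of activin A, was near the limit of detection in WT-veh at 0.21, 0.44, 0.13 and 0.16 FPKM and reached 2.13, 1.74, 1.14 and 1.88 in WT-DES. It read 0.24, 1.21, 0.31 and 0.59 in αERKO-veh SV and 0.1, 0.48, 0.47 and 0.54 in αERKO-DES, so that αERKO-veh 2 exceeded the lowest WT-DES sample. The rise in WT was 1.13 ± 0.18 SE on the log2(FPKM + 1) scale (limma adjusted p 5.4e-05). Inha, which encodes the inhibin α subunit, rose from 5.81 ± 0.293 to 11.1 ± 0.519 FPKM (SD, n = 4 each; 1.9-fold, limma adjusted p 0.00036).

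Among 8 BMP and GDF ligand genes 7 rose, and the size of the rise depended strongly on a single sample. Bmp3, which encodes an atypical BMP that opposes BMP signalling through activin receptors, read 1.83, 1.11, 2.11 and 2.18 FPKM in WT-veh and 43.8, 5.13, 6.67 and 7 in WT-DES. Its levels were 1.94, 1.3, 0.17 and 0.95 in αERKO-veh SV and 1.25, 1.03, 0.04 and 0.08 in αERKO-DES. Every WT-DES sample was above every other sample, with WT-DES 1 far above the other three. The log2 change was 2.04 ± 0.51 SE (limma adjusted p 0.0021), and 1.38 ± 0.32 without WT-DES 1 (adjusted p 0.0012).

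Bmp5, a ligand of the Bmp5 to Bmp7 subgroup, was nearly silent in WT-veh at 0.16, 0.06, 0.08 and 0.29 FPKM and read 13.4, 0.88, 2.4 and 2.85 in WT-DES. It stayed at 0.16, 0.57, 0.16 and 0.8 in αERKO-veh SV and 0, 0.14, 0.04 and 0.1 in αERKO-DES. All WT-DES samples lay above all others, and the log2 change was 1.92 ± 0.42 SE (limma adjusted p 0.00074), or 1.35 ± 0.22 without WT-DES 1 (adjusted p 6.1e-05). Bmp6, of the same subgroup and known outside reproduction as the inducer of hepcidin, read 1.19, 0.84, 1.22 and 1.35 FPKM in WT-veh and 13, 2.84, 2.55 and 4.4 in WT-DES. Its values were 1.64, 3.42, 1.13 and 1.33 in αERKO-veh SV and 1.01, 1.81, 1.33 and 0.81 in αERKO-DES, with αERKO-veh 2 inside the WT-DES range. The log2 change was 1.40 ± 0.35 SE (limma adjusted p 0.002), and 0.97 ± 0.23 without WT-DES 1 (adjusted p 0.0016).

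Bmp4, a mesenchymal BMP that restrains duct branching in the developing prostate, was the most abundant of the rising BMP genes. It read 15.1, 14.4, 14.8 and 13.2 FPKM in WT-veh and 53.2, 29.6, 34.5 and 28.7 in WT-DES. The αERKO-veh samples read 14, 16.5, 12.9 and 17.1 and the αERKO-DES samples 15.9, 15.8, 11.53 and 14.7. The WT-DES samples stood above the other 12, at 2.54-fold the WT-veh mean (log2 change 1.24 ± 0.16 SE, limma adjusted p 6.2e-06) and 2.15-fold without WT-DES 1. Bmp2 went from 3.01 ± 0.296 to 7.57 ± 6.82 FPKM (2.52-fold, limma adjusted p 0.033), a call that was lost without WT-DES 1 (1.39-fold), without WT-veh 1, 3 or 4, after quantile normalization, with only the 2 groups compared and at an adjusted p of 0.01. Gdf10, a BMP3-like ligand, went from 48.8 ± 3.05 to 86 ± 30.4 FPKM (1.76-fold, limma adjusted p 0.013) and to 2.05-fold without WT-DES 1, which was itself below all WT-veh samples. Gdf11, a close relative of myostatin, rose from 1.26 ± 0.39 to 2.5 ± 0.493 FPKM (1.97-fold, but 1.18-fold and not called after quantile normalization). Bmp7, an epithelial BMP, was 21 ± 1.26 in WT-veh and 20.1 ± 11 FPKM in WT-DES and was not called (log2 change -0.19 ± 0.23 SE, 95% interval -0.68 to 0.31). For Bmp7, WT-DES 1 was above all WT-veh samples and the other WT-DES samples below them, and without WT-DES 1 the log2 change was -0.50 (limma adjusted p 0.0028), under the fold limit.

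**Figure D2:**
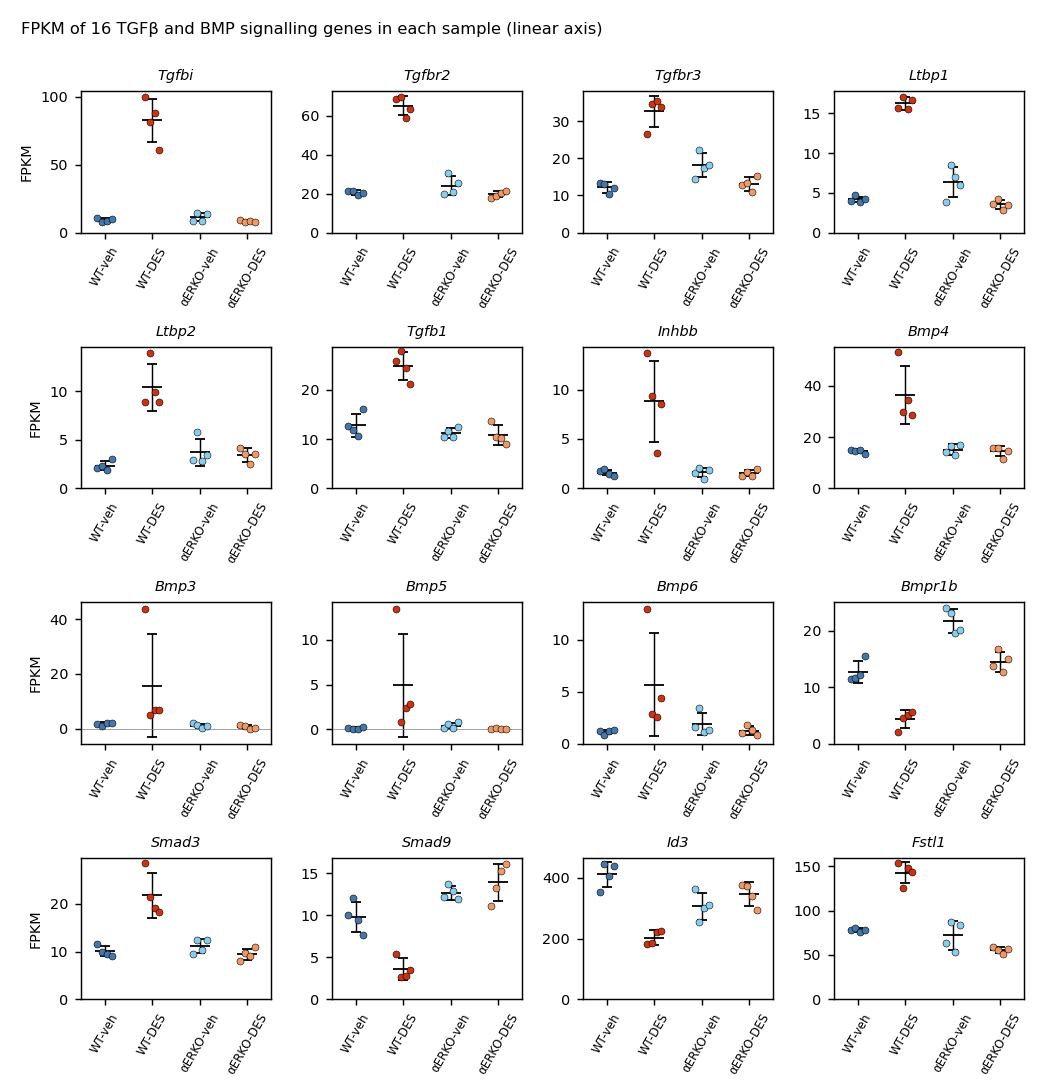
FPKM (linear vertical axes) of 16 of the genes in each sample of the 4 groups, with points for samples and bars for mean and SD. WT-DES stands apart upwards for Tgfbi, Tgfbr2, Ltbp1 and Fstl1 and downwards for Bmpr1b, Smad9 and Id3, and its spread for Bmp3, Bmp5 and Bmp6 comes from 1 high sample.

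Among 11 receptor and coreceptor genes 8 rose and 1, a BMP receptor gene, fell. Tgfbr2, the type II receptor that binds TGFβ, read 21.6, 21.2, 19.2 and 20.4 FPKM in WT-veh and 68.4, 69.5, 58.9 and 63.6 in WT-DES. In αERKO-veh it read 19.7, 30.4, 21 and 25.5, and in αERKO-DES 17.9, 19, 20.4 and 21.4. The WT-DES samples formed a tight group above all the others, 3.16-fold over WT-veh (log2 change 1.61 ± 0.11 SE, limma adjusted p 9.4e-09). Tgfbr3, the coreceptor betaglycan that presents TGFβ2 and inhibin, read 13.4, 13, 10.3 and 12.1 FPKM in WT-veh, 26.5, 34.7, 35.4 and 33.7 in WT-DES. Values were 14.5, 22.3, 17.5 and 18.2 for αERKO-veh mice and 12.8, 13.5, 10.8 and 15.3 for αERKO-DES mice. WT-DES was again highest without overlap (2.68-fold, log2 change 1.35 ± 0.13 SE, limma adjusted p 3.5e-07). Tgfbr1, the type I partner of Tgfbr2, rose from 11.3 ± 1.08 to 19.7 ± 0.89 FPKM (1.75-fold, limma adjusted p 3.1e-07), and was 1.42-fold and not called after the length correction.

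Acvr1b, the activin type I receptor ALK4, read 7.28, 7.95, 6.87 and 5.87 FPKM in WT-veh and 21.1, 15.5, 13.5 and 16.5 in WT-DES. The αERKO-veh samples read 9.91, 13.1, 9.67 and 12.1 and the αERKO-DES samples 7.22, 9.27, 8.11 and 10.6. WT-DES was above all the others, with αERKO-veh 2 just under its lowest sample (2.38-fold over WT-veh, log2 change 1.13 ± 0.14 SE, limma adjusted p 4e-06). Acvrl1, the type I receptor ALK1 of endothelial cells, read 10.1, 9.92, 9.82 and 11.1 FPKM in WT-veh and 29.8, 23.4, 22.3 and 23.1 in WT-DES. Values were 11.7, 13.9, 10.7 and 12.8 for αERKO-veh mice and 11.2, 10.5, 10.2 and 10.4 for αERKO-DES mice. Its rise was 2.41-fold (log2 change 1.18 ± 0.09 SE, limma adjusted p 3.4e-08), and the endothelial markers given above rose too. Within WT-DES, however, WT-DES 1 had the highest Acvrl1 value and the lowest endothelial level, a mean log2(FPKM + 1) of 4.55 against 5.02 to 5.29. Their relation was not tested. Acvr1 (1.85-fold), the type II receptor gene Bmpr2 (1.62-fold) and the activin type II receptor gene Acvr2b (1.94-fold) were called higher too, while Acvr2a (1.29-fold) and Bmpr1a (1.12-fold) were not called. After quantile normalization Bmpr2 (1.44-fold) and Acvr2b (1.20-fold) were not called, nor was Bmpr2 after the length correction (1.06-fold).

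Bmpr1b, a BMP type I receptor known for its role in skeletal and gonadal tissues, moved the other way. It read 11.51, 11.54, 12.2 and 15.6 FPKM in WT-veh and 2.1, 4.59, 5.1 and 5.61 in WT-DES. In αERKO-veh it read 23.9, 23.1, 19.5 and 20.1, and in αERKO-DES 13.7, 16.8, 12.6 and 14.9. The 4 groups fell in the order WT-DES, WT-veh, αERKO-DES and αERKO-veh by mean, with WT-DES separate from all the others. The WT-DES level was 2.92-fold lower than WT-veh (log2 change -1.41 ± 0.19 SE, limma adjusted p 8.5e-06).

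Of 8 Smad genes 2 rose and 2 fell, so that 50% were called, beside 52.7% of all genes tested. Smad3, a mediator of TGFβ and activin signals, read 11.6, 10.01, 9.57 and 9.16 FPKM in WT-veh and 28.7, 21.4, 19.1 and 18.3 in WT-DES. The αERKO-veh samples read 9.45, 12.4, 10.3 and 12.3 and the αERKO-DES samples 8.12, 9.75, 8.99 and 10.9. WT-DES lay above all the others (2.17-fold, log2 change 1.03 ± 0.13 SE, limma adjusted p 5.8e-06). Smad5, a BMP-type Smad, rose from 16.2 ± 1.68 to 24.3 ± 2.34 FPKM, but its ratio of 1.5 sat on the fold limit and the call was lost without WT-veh 3, without WT-veh 4 and without WT-DES 2, 3 or 4 in turn.

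Smad9, the least abundant of the BMP-type Smads, read 10.04, 12.1, 9.42 and 7.69 FPKM in WT-veh and 5.43, 2.59, 2.79 and 3.43 in WT-DES. Values were 12.2, 13.8, 12.9 and 11.9 for αERKO-veh mice and 11.1, 13.3, 15.3 and 16 for αERKO-DES mice, which overlapped those of WT-veh. WT-DES was below every other sample, 2.75-fold under WT-veh (log2 change -1.27 ± 0.17 SE, limma adjusted p 8.1e-06). Smad6, which inhibits the BMP arm, fell from 20.8 ± 2.03 to 12.7 ± 2.57 FPKM (1.64-fold lower, limma adjusted p 8.3e-05), a call that was not kept at equal totals. Smad7, which inhibits both arms, was 16.3 ± 1.26 and 10.9 ± 0.617 FPKM with no overlap, and at 1.5-fold lower just missed the fold limit (limma adjusted p 2.4e-05). The common Smad4 was 1.27-fold lower, Smad2 1.39-fold and Smad1 1.11-fold the WT-veh level, none of them called.

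Antagonist genes differed among themselves, with 2 of 5 tested called (40%), beside 52.7% of all genes tested. Fstl1, an abundant product of stromal cells, read 78, 79.99, 75.4 and 78.6 FPKM in WT-veh and 153, 125.95, 148 and 144 in WT-DES. Values were 63.2, 87.3, 53.5 and 84 for αERKO-veh mice and 59.4, 55.7, 51.3 and 57.3 for αERKO-DES mice. WT-DES was above all the others (1.83-fold, log2 change 0.86 ± 0.12 SE, limma adjusted p 1.7e-05), and the fibroblast markers given above rose too. Within WT-DES, however, WT-DES 1 had the highest Fstl1 value and the lowest fibroblast level, a mean log2(FPKM + 1) of 7.84 against 7.87 to 7.97. Their relation was not tested. Nog, the gene of noggin, rose from 0.833 ± 0.156 to 1.65 ± 0.267 FPKM (1.98-fold, limma adjusted p 0.00081), and was not called after quantile normalization (log2 change 0.09, limma adjusted p 0.49). Chrd, the gene of chordin, was 1.4-fold the WT-veh level and under the fold limit. Fst, the gene of the activin-binding protein follistatin, was 16.7 ± 1.43 and 14.2 ± 6.2 FPKM (log2 change 95% interval -0.93 to 0.23), and Fstl3, a second activin-binding protein, 11.9 ± 1.91 and 10.1 ± 7.47 FPKM (interval -1.01 to 0.19). For Fstl3, WT-DES 1 was above all WT-veh samples and the other WT-DES samples were below them, and without WT-DES 1 it was called lower (log2 change -0.81, limma adjusted p 9.7e-05).

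The genes of ligand storage and processing all rose. Ltbp1, the latent TGFβ binding protein that tethers the latent complex to the matrix, read 4.04, 4.67, 3.86 and 4.17 FPKM in WT-veh and 15.66, 17.1, 15.5 and 16.7 in WT-DES. In αERKO-veh it read 3.91, 8.48, 6.96 and 6, and in αERKO-DES 3.57, 4.23, 2.9 and 3.5. WT-DES was far above the rest (3.88-fold over WT-veh, log2 change 1.73 ± 0.15 SE, limma adjusted p 1.3e-07). Ltbp2, a matrix protein of the same family that does not bind latent TGFβ, read 2.03, 2.3, 1.92 and 2.97 FPKM in WT-veh, 8.92, 14, 9.86 and 8.88 in WT-DES. The αERKO-veh samples read 2.86, 5.78, 2.79 and 3.38 and the αERKO-DES samples 4.13, 3.49, 2.45 and 3.56. It too was highest in WT-DES without overlap (4.52-fold, log2 change 1.78 ± 0.19 SE, limma adjusted p 9.6e-07). Bmp1, which is not a BMP but a procollagen C-proteinase that also cleaves chordin, read 22.4, 21.4, 20.6 and 21.9 FPKM in WT-veh, 43.1, 41.6, 46.2 and 45.1 in WT-DES. Values were 16.3, 22.4, 17.4 and 21.5 for αERKO-veh mice and 19, 18.6, 14.3 and 15.2 for αERKO-DES mice. Its rise in WT-DES was 2.04-fold and its WT-DES values varied little (log2 change 1.00 ± 0.10 SE, limma adjusted p 6.3e-07).

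Of the 4 target genes Tgfbi rose and Id3 and Id1 fell, Id1 with a sign that depended on the scaling. Tgfbi, a matrix protein named for its induction by TGFβ, read 10.9, 8.05, 8.87 and 10.1 FPKM in WT-veh and 99.5, 81.7, 87.9 and 61 in WT-DES. In αERKO-veh it read 8.55, 14.8, 8.9 and 13.7, and in αERKO-DES 9.34, 7.87, 8.95 and 7.72. This was the largest log2 change of the 45 genes with a pseudocount of 1, though with 0.1 that of Bmp5 was larger (3.76 against 3.10). The mean of Tgfbi rose 8.7-fold with no overlap (log2 change 2.98 ± 0.17 SE, limma adjusted p 2.3e-09). Tgfbi is also expressed by macrophages, and the leukocyte markers rose in the same samples.

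Id3, an inhibitor of bHLH transcription factors and the most abundant of the 46 genes, read 354, 446, 408 and 438 FPKM in WT-veh and 181, 186, 223 and 225 in WT-DES. It read 363, 254, 300.1 and 309 in αERKO-veh SV and 378, 373, 341 and 293 in αERKO-DES. WT-DES was lowest with no overlap, 2.02-fold under WT-veh (log2 change -1.01 ± 0.12 SE, limma adjusted p 3.3e-06), but Id3 was not called at equal totals or after quantile normalization. Id1 fell from 255 ± 64.8 to 154 ± 38.6 FPKM (1.66-fold lower, log2 change -0.72 ± 0.20 SE, limma adjusted p 0.0044), with overlapping samples and a sign that turned after quantile normalization (log2 change 0.04). Id2 was 183 ± 11.4 and 161 ± 20.3 FPKM and was not called.

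To show what the upstream sequences of genes that moved apart look like, 4 windows are printed, from 250 bases before the RefSeq transcription start up to that start (build GRCm38.p6, gene strand, 5′ to 3′). Id3 and Smad9 fell in WT-DES, and Tgfbi and Tgfbr2 rose. Capitals mark GGCGCC and GGAGCC (either strand), GC-rich elements bound by BMP-type Smads. The windows lie at chr4:136143572-136143821 (plus strand) for Id3, chr3:54755332-54755581 (plus strand) for Smad9, chr13:56609336-56609585 (plus strand) for Tgfbi and chr9:116175364-116175613 (minus strand) for Tgfbr2. The Id3 start used is 325 bases downstream of the gene's start in the GENCODE annotation, so the Id3 window lies inside the annotated gene. The Tgfbi start used is 63 bases downstream, so the last bases of that window lie inside the gene.
Id3: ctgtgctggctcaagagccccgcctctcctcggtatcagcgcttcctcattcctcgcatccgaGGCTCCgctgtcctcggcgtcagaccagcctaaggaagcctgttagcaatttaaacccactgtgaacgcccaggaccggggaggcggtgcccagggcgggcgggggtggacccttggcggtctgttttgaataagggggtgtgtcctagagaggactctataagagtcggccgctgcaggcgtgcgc
Smad9: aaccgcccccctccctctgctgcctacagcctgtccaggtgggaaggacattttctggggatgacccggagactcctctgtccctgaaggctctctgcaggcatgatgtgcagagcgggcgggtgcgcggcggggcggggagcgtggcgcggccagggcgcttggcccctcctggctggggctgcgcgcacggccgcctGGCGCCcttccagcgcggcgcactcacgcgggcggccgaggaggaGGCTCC
Tgfbi: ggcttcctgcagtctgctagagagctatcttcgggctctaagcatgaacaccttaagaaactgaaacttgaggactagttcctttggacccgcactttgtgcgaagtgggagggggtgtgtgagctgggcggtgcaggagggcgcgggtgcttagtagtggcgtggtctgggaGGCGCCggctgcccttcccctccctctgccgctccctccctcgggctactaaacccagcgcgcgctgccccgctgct
Tgfbr2: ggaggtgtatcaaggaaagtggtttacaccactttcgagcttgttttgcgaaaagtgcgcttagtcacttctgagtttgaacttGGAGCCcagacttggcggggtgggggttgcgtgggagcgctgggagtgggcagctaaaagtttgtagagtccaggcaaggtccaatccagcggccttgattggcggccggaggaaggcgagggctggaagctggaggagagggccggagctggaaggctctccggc

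A RefSeq window was found for 33 of the 46 genes. GGCGCC was present in 8 of the 33 (24.2%) and in 9.59% of 32851 windows of the same length over all genes, and GGAGCC in 17 (51.5%) against 26.0%. The windows of these genes were GC-rich, with a median of 68.0% G or C against 52.4% over all genes, and both elements are themselves rich in G and C. GGAGCC was present in 3 of 4 windows of genes that fell and 12 of 22 of genes that rose, and GGCGCC in 1 of 4 and 3 of 22. The Smad palindrome GTCTAGAC (0.167% of all windows) and the oestrogen response element GGTCANNNTGACC (0.0639%) were in none of the 33. The shorter Smad-binding letters GTCTG were in 15 of the 33 (45.5%) and in 42.2% of all windows. AGGTCA, a single arm of that element in its common form, was in 3 of the 33 (Fstl3, Grem1 and Inha; 14.0% of all windows). A match is a description of these letters only.

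WT-DES 1 often lay outside the range of the other WT-DES samples, in these genes and in all genes. It lay above all 3 of them for 24 of the 46 genes, below for 9 and within their range for 13, beside 38.6%, 34.4% and 27.0% of all genes tested. Relative to the mean of the other 3 it was 6.99-fold for Bmp3, 6.58-fold for Bmp5, 4.24-fold for Bmp2, 3.99-fold for Bmp6, 3.27-fold for Fstl3 and 2.48-fold for Bmp7. For Fst the ratio was 0.303, for Bmpr1b 0.412 and for Gdf10 0.436. Tgfbr2, Ltbp1, Tgfb1 and Tgfbr1 had ratios of 1.07, 0.954, 1.06 and 1.05. The same sample had the highest smooth muscle marker level of the group, a mean log2(FPKM + 1) of 8.92 against 6.67 to 7.37 in the other WT-DES samples. On that scale it was also highest for basal epithelial (6.63 against 5.65 to 6.33), SV secretory (9.27 against 7.23 to 9.01), anterior prostate (5.54 against 2.65 to 4.87) and skeletal muscle markers (2.75 against 1.55 to 2.52). It was lowest for endothelial (4.55 against 5.02 to 5.29), proliferation (2.42 against 3.05 to 3.23) and, by a small margin, fibroblast markers (7.84 against 7.87 to 7.97). The part of these levels in its gene values was not tested. Without WT-DES 1, 34 of the 45 genes were called, 27 higher and 7 lower, with Bmp2 lost and Fstl3 and Smad7 gained as lower. The median coefficient of variation over the 45 genes was 16.2% in WT-DES, 10.1% in WT-veh, 12.7% in αERKO-veh and 12.6% in αERKO-DES, and over all genes tested 13.7%, 10.2%, 12.8% and 12.2% in the same order.

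**Figure D3:**
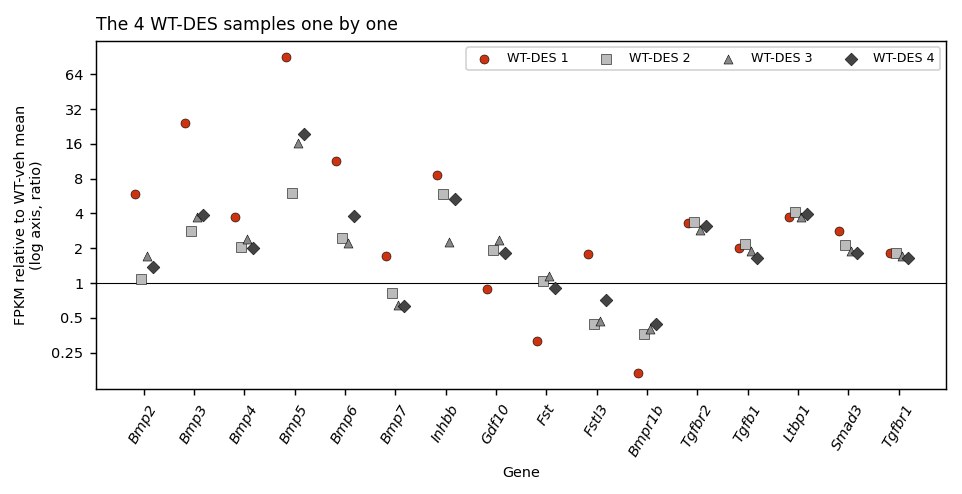
FPKM of 16 genes in each of the 4 WT-DES samples divided by the WT-veh mean (log axis, 1 marks no difference). WT-DES 1 (red circles) lies above the other samples for Bmp2, Bmp3, Bmp5, Bmp6, Bmp7 and Fstl3 and below them for Gdf10, Fst and Bmpr1b, and within or near them for Tgfbr2, Tgfb1, Ltbp1 and Tgfbr1.

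The second question was whether the DES change needs ERα. In αERKO SV, 1 of the 45 genes was called between αERKO-DES and αERKO-veh, beside 1.49% of all genes tested (0.0876% higher, 1.41% lower). That gene, Ltbp1, fell from 6.34 ± 1.91 to 3.55 ± 0.544 FPKM (SD, n = 4 each; log2 change -0.66 ± 0.15 SE, limma adjusted p 0.041), the opposite of its rise in WT, with αERKO-veh 1 inside the αERKO-DES range. The call was lost in 11 of the 16 fits that each left out 1 sample. The log2 changes of the 45 genes lay between -0.66 and 0.23 with a median of -0.13, against 0.02 for all genes, and 31 were below 0, whereas 52.7% of all genes tested were above 0. For 31 of the 45 the 95% interval was within 1.5-fold either way. For 14, among them Bmp3, Bmp5, Bmp6, Gdf10 and Tgfbi, the interval reached past that size. These intervals rest on a spread shared by all 4 groups, so scattered WT-DES values also widen them. Fstl3 was among the 14, though it read 11.6 ± 0.884 FPKM in αERKO-veh and 12.6 ± 0.502 in αERKO-DES. Bmpr1b read lower in every αERKO-DES sample than in any αERKO-veh sample (log2 change -0.55 ± 0.19 SE, limma adjusted p 0.1) and was not called, and 3 of the 45 did not overlap, beside 13% of all genes tested. Between these 2 groups the skeletal muscle marker level was lower in αERKO-DES by 3.52, the adipose level by 2.66 and the anterior prostate level by 1.73 (mean log2(FPKM + 1), each with exact two-sided permutation test, p = 0.0286, the smallest p that 4 against 4 allows, and 0.0857 after adjustment over 33 tests).

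The difference of the DES change between genotypes was tested as the interaction in the same fit, with a log2 difference of at least 1.5-fold for a call. It was called for 33 of the 45 genes, beside 56.4% of all genes tested, 27 with a more positive change in WT and 6 with a more negative change. The median difference was 0.84, and 0.00 over all genes tested. At equal totals 34 differences were called positive and 2, Smad9 and Id3, negative. Of the 33 genes called in WT, 32 were also called here, and only Bmp2 was not, while Smad7 was added. The WT change is itself a part of the interaction, so much of this overlap was given in advance. With a pseudocount of 1 the largest differences were those of Tgfbi (3.35 ± 0.24 SE, limma adjusted p 4.7e-08), Bmp3 (2.44 ± 0.72, 0.0072), Ltbp1 (2.39 ± 0.22, 3.1e-07), Bmp5 (2.31 ± 0.59, 0.0028) and Tgfbr2 (1.88 ± 0.15, 1.3e-07). With 0.1 those of Bmp5 (5.24) and Bmp3 (3.57) exceeded that of Tgfbi (3.49). When each sample was left out in turn, the lowest difference was 1.78 for Bmp3, 1.73 for Bmp5 and 1.76 for Tgfbr2. The negative differences were those of Smad9 (-1.38 ± 0.24, 0.00012), Id3 (-1.19 ± 0.17, 2.7e-05), Smad6 (-0.86), Bmpr1b (-0.85), Smad7 (-0.77) and Id1 (-0.83, but 0.12 after quantile normalization). After quantile normalization Id3 and Id1 were not called, nor were the positive differences of Acvr2b, Bmp6, Gdf11, Nog and Tgfb2. At equal totals those of Smad6 (-0.33), Bmpr1b (-0.36), Smad7 (-0.24) and Id1 (-0.27) kept their sign and were not called. The 2 changes share no sample, but both enter the difference.

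**Figure D4:**
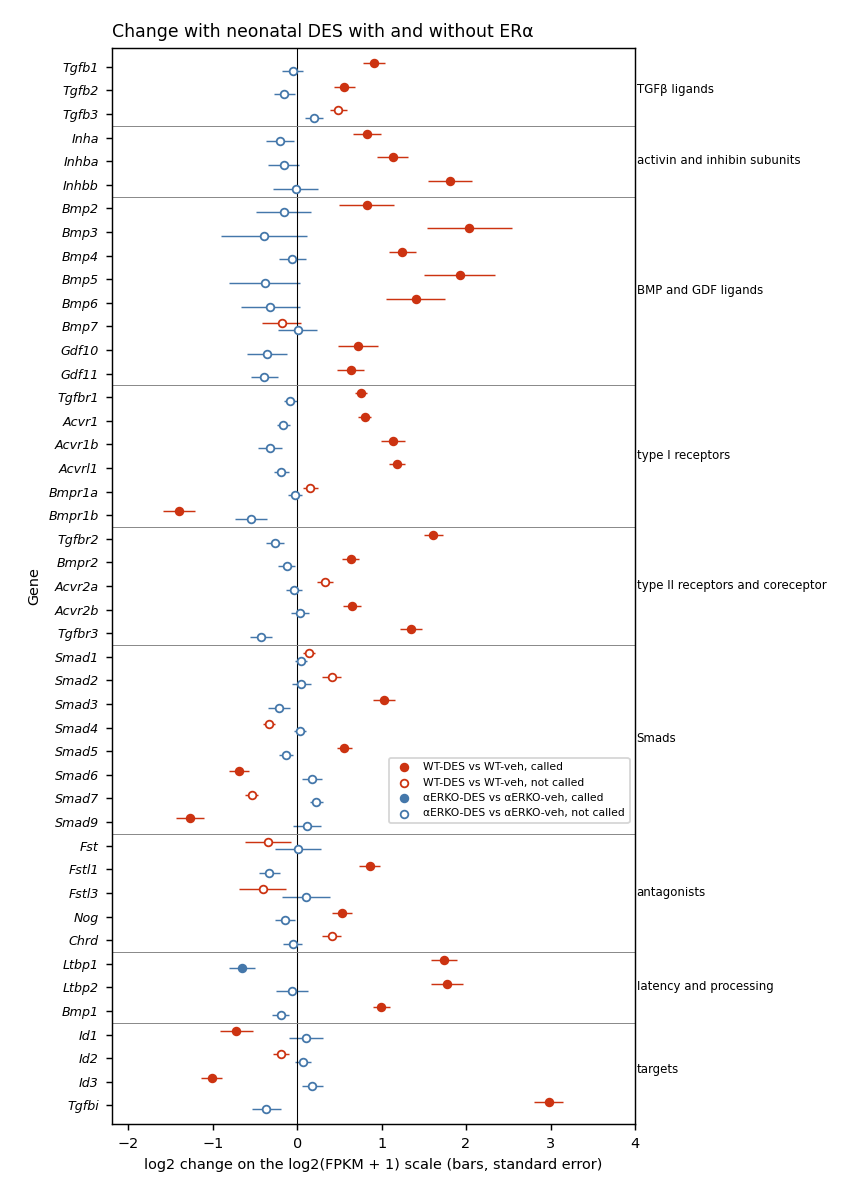
Log2 change with DES (points, bars are standard errors) of the 45 genes tested, in WT (red) and in αERKO (blue) SV, filled where called. The red points spread from -1.41 for Bmpr1b to 2.98 for Tgfbi, and the blue points from -0.66 to 0.23.

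DES-treated SV with and without ERα were compared directly. Of the 45 genes 31 were called between αERKO-DES and WT-DES, 25 lower and 6 higher in αERKO-DES, beside 53.4% of all genes tested. The higher ones were Smad9, Bmpr1b, Smad6, Id3, Smad7 and Smad4, with log2 differences of 1.74, 1.59, 1.00, 0.76, 0.71 and 0.66, of which that of Id3 turned to -0.02 after quantile normalization. At equal totals 29 were called lower and 3 higher, with Id3 (0.38), Smad7 (0.36) and Smad4 (0.28) not called. Between αERKO-DES and WT-veh none of the 45 genes was called by limma (15 had an unadjusted p under 0.05 and 7 an adjusted p of at most 0.05, which 8.06% of all genes had), beside 3.18% of all genes tested. These comparisons use WT-DES and WT-veh samples already used above. Over all 16 samples, all 4 WT-DES values were above the 12 others for 21 of the 45 genes (24.2% of all genes tested) and below them for 6 (24.0%), namely Bmpr1b, Smad4, Smad6, Smad7, Smad9 and Id3.

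The third question was what the loss of ERα alone changes. Between αERKO-veh and WT-veh, 4 of the 45 genes were called, all higher in αERKO-veh, beside 7.12% of all genes tested (4.5% higher, 2.63% lower). All 4 encode receptors or a storage protein. Bmpr1b rose from 12.7 ± 1.93 to 21.7 ± 2.17 FPKM (SD, n = 4 each; 1.71-fold, log2 change 0.73 ± 0.19 SE, limma adjusted p 0.015), and Acvr1b from 6.99 ± 0.871 to 11.2 ± 1.68 FPKM (1.6-fold, 0.61 ± 0.14, adjusted p 0.01), both without overlap.

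Bmpr2, the type II receptor for BMPs, read 8.21, 8.65, 6.97 and 6.42 FPKM in WT-veh, 13.7, 11.51, 11.6 and 12.2 in WT-DES. The αERKO-veh samples read 11.3, 14.3, 12.3 and 11.7 and the αERKO-DES samples 10.3, 10.2, 12 and 12.5. WT-veh was lowest with no overlap, and the other 3 groups overlapped (1.64-fold for αERKO-veh over WT-veh, log2 change 0.65 ± 0.10 SE, limma adjusted p 0.0036). Ltbp1 rose from 4.18 ± 0.347 to 6.34 ± 1.91 FPKM (1.51-fold, log2 change 0.46 ± 0.15 SE, limma adjusted p 0.038), with αERKO-veh 1 inside the WT-veh range. That call was kept in 10 of the 16 fits that each left out 1 sample (lost without WT-veh 1, 3 or 4 and without αERKO-veh 2, 3 or 4) and in 7 of 12 other settings. Type I and type II receptor genes had a positive log2 change in 11 of 11, beside 46.5% of all genes tested (after the length correction Tgfbr2 turned to -0.09), with group medians of 0.30 and 0.34, and 5 of 6 and 4 of 5 passed the adjusted p limit in limma. Over the 45 genes 12 did so, 8 of them under the fold limit, beside 26.1% of all genes tested, the median log2 change was 0.15, against -0.02 for all genes, and 12 did not overlap, beside 29.7% of all genes tested.

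The 4 called genes had a median longest transcript of 6010 nt, against 4062 nt for the 45 genes and 3244 nt for all genes tested with a length. When each sample was corrected for its trend with transcript length, 2 of the 45 genes were called in this comparison, Acvr1b and Nog. Bmpr1b was then 1.52-fold higher (limma adjusted p 0.064), Bmpr2 1.21-fold (0.031) and Ltbp1 1.23-fold (0.28), none of them called. The SV secretory protein level was lower in αERKO-veh by 0.43 (mean log2(FPKM + 1), exact two-sided permutation test, p = 0.0286, and 0.0857 after adjustment over 33 tests), with 0 of 11 genes called. Skeletal muscle markers were higher in αERKO-veh by 2.14 (same scale, exact two-sided permutation test, p = 0.0857, and 0.157 after adjustment over 33 tests) and 4 of 12 were called. Of 8 endothelial markers 2 were called higher in αERKO-veh (level higher by 0.11, exact two-sided permutation test, p = 0.714, and 0.737 after adjustment). Without αERKO-veh 2, which had the highest fibroblast (6.71) and endothelial (4.36) marker levels of its group, Acvr1b and Bmpr2 were still called. Bmpr1b, at 1.67-fold and a limma adjusted p of 0.0503, just missed the limit, and Ltbp1 was 1.34-fold and not called.

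**Figure D5:**
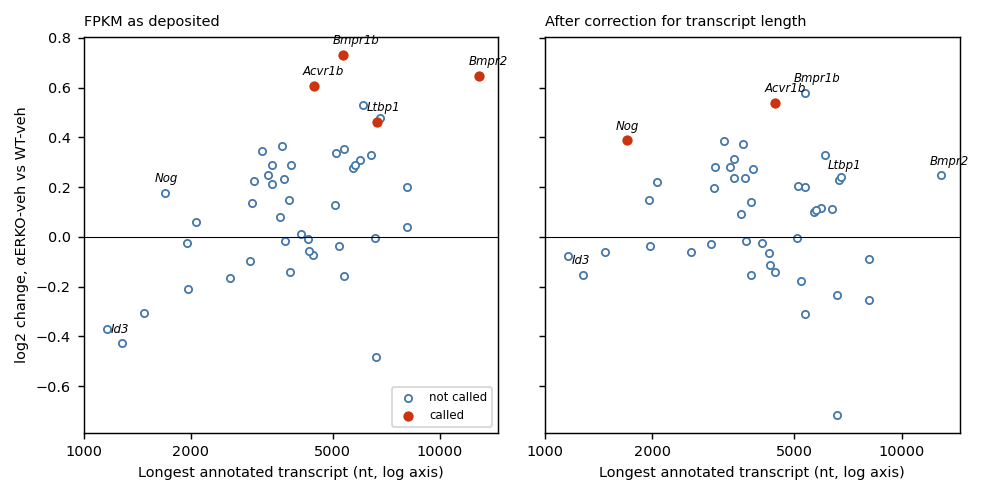
Log2 change between αERKO-veh and WT-veh of the genes tested against the length of the longest annotated transcript (log axis), for FPKM as deposited (left) and after correction for transcript length (right), with called genes filled. On the left Acvr1b, Bmpr1b, Bmpr2 and Ltbp1 are called, and on the right Bmpr2, Ltbp1 and Bmpr1b are no longer called.

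A further 85 genes of the pathway were looked at as a list, of which 67 could be tested. Between WT-DES and WT-veh 43 of the 67 (64.2%) were called, 36 higher and 7 lower, beside 52.7% of all genes tested (28.9% called higher, 23.9% lower), with a median log2 change of 0.60. By group, calls were 8 of 11 for latent TGFβ storage and activation (8 higher), 12 of 15 for other antagonists and modulators (9 higher, 3 lower), 10 of 15 for other targets (9 higher, 1 lower), 6 of 13 for Smad regulators (5 higher, 1 lower), 5 of 7 for other receptors (4 higher, 1 lower) and 2 of 6 for other ligands (1 higher, 1 lower). Thbs1, the gene of thrombospondin 1, which activates latent TGFβ, had the largest rise of the storage group (2.60 ± 0.28 SE, limma adjusted p 9.6e-07). Among modulators the serine protease gene Htra3 rose most (1.93 ± 0.14, 2e-08) and Sost, the gene of sclerostin, fell most (-2.71 ± 0.61, 0.001). Among targets Snai2 rose (1.62 ± 0.13, 4.5e-08). Pmepa1, a feedback inhibitor of TGFβ receptors, rose (1.35 ± 0.19, 1.2e-05) and the antiproliferative Tob1 fell (-1.34 ± 0.08, 4.9e-09). The BMP coreceptor gene Rgma rose (1.11 ± 0.15, 7.8e-06) and Amhr2, the receptor of anti-Müllerian hormone, fell (-0.51 ± 0.19, 0.028). Between αERKO-DES and αERKO-veh the log2 change of Amhr2 was -0.74 (limma adjusted p 0.052, not called), and its interaction was not called (adjusted p 0.45). The ligand genes Gdf1 and Bmp15 changed by 1.07 ± 0.17 and -0.88 ± 0.14 (limma adjusted p 5e-05 and 6.2e-05). Both had low levels, at 1.13 and 1.26 FPKM in WT-veh and 3.54 and 0.23 FPKM in WT-DES. In the other comparisons, calls among the 67 were 4 for αERKO-veh against WT-veh (4 higher, beside 7.12% of all genes), 4 for αERKO-DES against αERKO-veh (1 higher, 3 lower, beside 1.49%) and 41 for the interaction (35 positive, 6 negative, beside 56.4%). For αERKO-DES they were 43 against WT-DES (6 higher, 37 lower, beside 53.4%) and 3 against WT-veh (3 lower, beside 3.18%).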

How the data were processed

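The authors sequenced paired reads of 126 nt on an Illumina HiSeq, kept reads of mean quality above 20, aligned them with TopHat 2.0.4 to mm10 and deposited 1 table of FPKM values per gene and sample made with Cufflinks 2.0.2. FPKM divides by length and by the total of fragments, so genes that take a large share of a library lower all others, and read depth per sample is unknown. The genes and lists were chosen with earlier results of these data known. From the table, log2(FPKM + 1) was tested with limma 3.58.1 in R 4.3.3 (trended variance, all 4 groups in 1 fit). A call needed adjusted p up to 0.05, mean FPKM 1.5-fold or more apart and, in 1 of the 2 groups, a mean above 1, after the thresholds of the study's methods. Intervals are 95% intervals from the moderated fit. The fit was tested on simulated data. Exact two-sided permutation tests compared marker levels (70 arrangements). Values in every sample were given for the 20 called genes with the largest change in WT and for every gene called in αERKO-veh against WT-veh or αERKO-DES against αERKO-veh, and from the 85 further genes the largest called rise and fall of each of 6 lists, of which 1 is not reported here. Windows before RefSeq starts and GENCODE lengths were joined by symbol. Alternatives tried were another pseudocount, filter, scaling, weights, the groups compared alone, a replicate block, a length correction and leaving out each sample.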

Additional observations from a re-analysis of the deposited data

Results flagged for a closer look

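In 12 of 184 sets of 4 samples (46 genes in 4 groups), 1 sample lay far from the other 3 by Dixon's test. Chance flags about 1 in 20 sets, here 9.2. In WT-DES, 5 of the 7 such values belonged to WT-DES 1, which read 17.7 FPKM for Bmp2, 43.8 for Bmp3, 13.4 for Bmp5, 36.3 for Bmp7 and 29.8 for Acvrl1. WT-DES 2 stood apart at 40.1 FPKM for Tgfb3 and 5.38 for Chrd. In αERKO-veh the values were 0.66 for Gdf11 (αERKO-veh 1), 13.5 for Fst (αERKO-veh 3) and 5.56 for Chrd (αERKO-veh 2). In αERKO-DES they were 0.1 for Inhba (αERKO-DES 1) and 13.35 for Fstl3 (αERKO-DES 3).

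The DES change differed between genotypes by the limma interaction for 33 genes. The log2 difference, WT change minus αERKO change, was 3.35 for Tgfbi, 2.44 for Bmp3, 2.39 for Ltbp1, 2.31 for Bmp5, 1.88 for Tgfbr2, 1.84 for Ltbp2, 1.83 for Inhbb, 1.78 for Tgfbr3, 1.72 for Bmp6, 1.45 for Acvr1b, 1.37 for Acvrl1, 1.30 for Bmp4, 1.29 for Inhba and 1.24 for Smad3. It was 1.19 for Fstl1, 1.19 for Bmp1, 1.08 for Gdf10, 1.03 for Inha, 1.02 for Gdf11, 0.97 for Tgfb1, 0.97 for Acvr1, 0.84 for Tgfbr1, 0.76 for Bmpr2, 0.71 for Tgfb2, 0.69 for Smad5, 0.67 for Nog and 0.62 for Acvr2b. The negative differences were -1.38 for Smad9, -1.19 for Id3, -0.86 for Smad6, -0.85 for Bmpr1b, -0.83 for Id1 and -0.77 for Smad7. After quantile normalization that of Id1 turned positive and that of Id3 was no longer called. Among the positive ones, that of Acvr2b turned negative after quantile normalization (-0.0586) and that of Bmpr2 after the length correction (-0.0071).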

How the results depend on the processing

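Between WT-DES and WT-veh the count of 33 calls ranged from 27 (quantile normalization) to 36 (equal totals without the 20 highest genes), and leaving out each sample gave 31 to 34. For the interaction the count ranged from 28 to 36, and from 32 to 34 when each sample was left out. For αERKO-veh against WT-veh the count of 4 became 7 at equal totals, 2 after the length correction and 1 with the p limit set to 0.01, and omitting each sample in turn gave 2 to 5. Only Bmpr2 was kept at that p, and Bmpr1b and Ltbp1 were lost without αERKO-veh 2. For αERKO-DES against αERKO-veh the count of 1 became 0 with no minimum on FPKM, with only the 2 groups compared, after quantile normalization and with the p limit at 0.01, and 2 with sample weights. Leaving out each sample gave 0 to 2 there, and 0 without any of WT-veh 1, 2 or 3, WT-DES 3 or 4, αERKO-veh 2, 3 or 4 and αERKO-DES 1, 2 or 3. For αERKO-DES against WT-veh the count of 0 became 1 with median-ratio scaling, quantile normalization, equal totals and the length correction, and leaving out each sample gave 0 to 4, with 4 without αERKO-DES 1 (Acvr2b, Bmpr2, Inha and Smad9), 3 without αERKO-DES 2 and 1 without WT-veh 1 or 2. After quantile normalization signs turned for Id1 in WT-DES against WT-veh (log2 change 0.0398) and in the interaction (0.117), Acvr2b in the interaction (-0.0586), and Nog (0.11) and Id3 (-0.0175) in αERKO-DES against WT-DES, and the length correction turned Bmpr2 in the interaction (-0.0071). The causes were not tested. At equal totals the median interaction over all genes moved from 0.00 to 0.51. A fit with the replicate number as a block gave 33, 4, 1, 0 and 33 calls for WT-DES against WT-veh, αERKO-veh against WT-veh, αERKO-DES against αERKO-veh, αERKO-DES against WT-veh and the interaction, the same genes as without the block. Deviations of same-numbered samples had correlations of -0.215 to 0.277, the highest between αERKO-veh 1 and αERKO-DES 1. Differently numbered samples were not compared in this way, so whether the numbers pair samples was left unsettled. The main fit used no pairing. Read depth is unknown, and genes near 1 FPKM such as Bmp5, Inhba, Grem1, Gdf1, Bmp15 and Amhr2 have ratios of little precision.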
